A study of Homo sapiens with 6 samples.

Results

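The genes described here are the Nodal ligand, its antagonists and its co-factors: NODAL, GDF3, TDGF1, LEFTY1, LEFTY2, CER1, FOXH1, SKIL, PMEPA1 and TGIF1. They were chosen by name, and every probe whose gene symbol is one of these 10 genes was taken, which gave 10 of the 16922 genes and 18 of the 24526 probes on the array. NODAL, GDF3, TDGF1, LEFTY1, LEFTY2, CER1, FOXH1 and SKIL had 1 probe each, PMEPA1 had 4 and TGIF1 had 6. Platform symbols were brought up to date through the platform's gene IDs, and TDGF1 was found under its current symbol CRIPTO. The cells were HES3, a human embryonic stem cell line, cultured for 3 days with Activin A plus BMP4 (3 arrays) or with Activin A (3 arrays), each factor at 50 ng/ml. The groups were taken from the sample titles, because the protocol text of the labels gives both factors for all 6 samples. In both groups the cells had come from cultures on irradiated human fibroblast feeders, were passed through a strainer that typically removed 90% of these feeders, and spent 2 days on fibronectin before treatment. Total RNA was hybridised to Illumina bead arrays, and the design text calls the replicates biological.

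Nodal is a secreted ligand of the TGF-beta family. It binds the Activin receptors together with a co-receptor of the EGF-CFC class, TDGF1 (Cripto), and the receptors phosphorylate SMAD2 and SMAD3, which enter the nucleus with SMAD4 and bind DNA with partners such as FOXH1. Activin A uses the same receptors without the co-receptor. The pathway switches on its own inhibitors: the LEFTY proteins bind Nodal and its co-receptor, CER1 binds Nodal and BMPs outside the cell, and PMEPA1, SKIL and TGIF1 restrain the SMADs inside it. In the embryo graded Nodal signalling specifies the primitive streak and the endoderm, and the comparison asks what adding BMP4 to Activin A does to the transcripts of this circuit.

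With BMP4 added, the ligand gene NODAL was lower while the antagonist gene CER1 and the feedback gene PMEPA1 were higher, and the antagonist genes LEFTY1 and LEFTY2 stayed within a narrow interval around no difference. CER1 was 2.84-fold higher, the brighter PMEPA1 probe 1.76-fold higher and NODAL 1.51-fold lower with Activin A + BMP4 (n = 3 arrays each). TDGF1, TGIF1 and GDF3 did not pass the test. FOXH1 and SKIL were at or near background. Of the 8 members with a tested probe, 2 were higher, 1 was lower and 5 did not pass (limma, adjusted p threshold 0.05). Over all 8186 tested genes 35.8% passed, 17.6% higher and 18.1% lower, so the members passed about as often as genes in general. For 5 of the 8 members the arrays of the treatments did not overlap, against 50.2% of tested genes. The median log2 difference of the 8 members was 0.19, against 0.0019 over all tested genes.

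Levels below are log2 signals after background correction and quantile normalization, and a difference is Activin A + BMP4 minus Activin A. A probe counts as detected on an array at a detection p under 0.01, and it was tested if detected on at least 3 of the 6 arrays. Between 9348 and 10460 probes were detected per array. Chips were inferred from the number that begins each array's identifier. By that reading each chip held 1 treatment, and the Activin A arrays shared a chip. Replicate 3 of Activin A + BMP4 lay on another chip than replicates 1 and 2. Treatment and chip thus cannot be told apart. ID1, ID2 and ID3, direct BMP targets, were higher with BMP4 by log2 differences of 1.91, 2.29 and 1.32. The RNA came from all cells in the dish, and fewer cells of a type cannot be told apart from less RNA per cell. Where 18.1% of all tested genes were lower and 17.6% higher, 18 of 20 tested fibroblast markers were lower with BMP4, 1 was higher and 1 did not pass. The median log2 difference of these markers was -1.33. Their summed level was 15.1 to 15.2 with Activin A + BMP4 and 16.4 to 16.6 with Activin A, on the log2 scale. The marker POSTN was detected on 0 arrays. Of 9 tested markers of embryonic stem cells, 6 were lower, 1 was higher and 2 did not pass, and EPCAM, another such marker, was detected on 1 array. Of 9 tested markers of definitive endoderm, 7 were higher, 0 were lower and 2 did not pass, with a median log2 difference of 1.08. The 2 were FOXA2 (0.13, limma adjusted p = 0.386) and HHEX (0.30, limma adjusted p = 0.194). GATA6, another such marker, was detected on 1 array and not tested. Several of the endoderm markers, such as SOX17, EOMES, FOXA2 and HHEX, are also among the target factors below.

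The upstream sequences of the 3 genes that passed are shown first, because these genes moved in opposite directions. RefSeq windows (build GRCh38.p14) were at hand for 7 of the 10 members. Each sequence holds the 250 bases before the listed transcription start, 5′ to 3′ on the strand of the gene. Capitals mark matches, on either strand, to the SMAD box CAGAC, the FOXH1 core AATNCACA, the BMP SMAD palindrome GGCGCC and the T-box half-site AGGTGTNA. No matches to different motifs overlap in these 3 windows.
NODAL, chr10:70441682-70441931, minus strand: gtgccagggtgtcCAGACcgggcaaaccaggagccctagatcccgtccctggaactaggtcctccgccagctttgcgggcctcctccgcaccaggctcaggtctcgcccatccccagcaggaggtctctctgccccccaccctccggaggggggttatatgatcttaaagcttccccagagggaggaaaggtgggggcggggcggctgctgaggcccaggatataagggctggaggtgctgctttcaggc
CER1, chr9:14722734-14722983, minus strand: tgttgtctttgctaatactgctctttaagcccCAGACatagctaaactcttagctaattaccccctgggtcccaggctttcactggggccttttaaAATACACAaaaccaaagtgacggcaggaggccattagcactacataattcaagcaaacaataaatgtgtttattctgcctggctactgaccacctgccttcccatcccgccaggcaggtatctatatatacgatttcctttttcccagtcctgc
PMEPA1, second of 4 listed starts, chr20:57710578-57710827, minus strand: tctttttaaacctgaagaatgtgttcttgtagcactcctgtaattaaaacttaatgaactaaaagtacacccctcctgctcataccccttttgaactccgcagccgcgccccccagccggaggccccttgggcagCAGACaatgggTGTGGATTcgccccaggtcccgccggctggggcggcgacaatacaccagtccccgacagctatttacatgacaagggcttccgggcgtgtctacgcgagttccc

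The NODAL window holds 1 SMAD box, at 237 to 233 bases before the start, and no FOXH1 core. The CER1 window holds 1 SMAD box, at 218 to 214 bases, and 1 FOXH1 core with the letters AATACACA, at 154 to 147 bases before the start. The PMEPA1 window was chosen from the 4 because it alone holds both motifs, a SMAD box at 115 to 111 bases and a FOXH1 core on the other strand, read here as TGTGGATT, at 104 to 97 bases. It was not matched to the transcript that the tested PMEPA1 probes measure, and another of the PMEPA1 windows holds no match to any of the motifs. The first PMEPA1 window holds the BMP SMAD palindrome, at 207 to 202 bases before its start, and no SMAD box or FOXH1 core. The last holds a SMAD box only. Among the other members the GDF3 window holds a FOXH1 core with the letters AATTCACA. The SMAD box is found in 38.0% of 34941 such windows and the FOXH1 core in 2.89%. The BMP SMAD palindrome occurs in 16.4% of all windows and the T-box half-site in 2.15%. Among the 17 member windows, 9 hold the SMAD box, 3 the FOXH1 core, 2 the palindrome and 1 the T-box half-site. TGIF1 has 7 of these windows and PMEPA1 has 4. TGIF1 windows 4 and 5 overlap and share 1 SMAD box. The windows are thus not independent, and no excess is read from these counts. These are matches of letters in windows at the start, and binding was not measured.

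Among the ligands, NODAL fell with BMP4. Its signals were 551.4, 515.4 and 500.4 on the Activin A + BMP4 arrays, against 988.7, 732.4 and 784.1 on the Activin A arrays, in linear intensity as deposited. After normalization its log2 levels were 9.23, 9.18 and 8.88 with Activin A + BMP4, against 9.81, 9.64 and 9.64 with Activin A. Every Activin A + BMP4 array was below every Activin A array on both scales, with a gap of 0.41 between the groups after normalization. The log2 difference was -0.60 ± 0.13 (SE), with a 95% interval of -0.88 to -0.31 (limma adjusted p = 0.00669). Activin A + BMP4 replicate 3, the array on its own chip, had the lowest level, and without it the difference was -0.50 (limma adjusted p = 0.0147).

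GDF3, a ligand that also signals through the EGF-CFC co-receptors, had log2 levels of 9.26, 9.05 and 8.84 with Activin A + BMP4, against 9.39, 9.28 and 9.43 with Activin A. The groups did not overlap, but the gap between them was 0.016. The difference was -0.31 ± 0.13 (SE), with a 95% interval of -0.61 to -0.020, and it did not pass once adjusted over all probes (limma adjusted p = 0.0917). It passed without Activin A + BMP4 replicate 1 (-0.42, limma adjusted p = 0.0404), and without replicate 3 of that treatment it was -0.21 (limma adjusted p = 0.224).

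TDGF1, the co-receptor gene, gave dim and scattered signals: 85.6, 109.4 and 208.1 with Activin A + BMP4, against 58.7, 76.6 and 81.4 with Activin A. Its log2 levels were 6.74, 7.07 and 7.64 with Activin A + BMP4, against 6.12, 6.63 and 6.63 with Activin A. The groups did not overlap, by 0.11, and Activin A + BMP4 replicate 3 stood highest. The difference of 0.69 ± 0.24 (SE) had a 95% interval of 0.15 to 1.23 and just missed the threshold (limma adjusted p = 0.0518). TDGF1 was the member whose call depended most on the choices made: it passed under 6 of 16 alternatives, and over all of them its difference ran between 0.44 and 0.90 (limma adjusted p = 0.0117 to 0.154). Without Activin A + BMP4 replicate 3 the difference was 0.44 (limma adjusted p = 0.128). Without replicate 1 of that treatment it was 0.90 (limma adjusted p = 0.0224). TDGF1 has near-identical copies in the genome, CRIPTO3 among them, and how well the probe separates them was not tested. The separate CRIPTO3 probe was detected on 0 arrays.

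Of the antagonists, CER1 rose most and the LEFTY genes did not pass. CER1, which encodes the secreted protein Cerberus, had signals of 6963, 7467.4 and 7085.2 with Activin A + BMP4, against 2850.1, 2583.6 and 2809.5 with Activin A. Its log2 levels averaged 12.9 ± 0.10 with Activin A + BMP4 and 11.4 ± 0.052 with Activin A (SD, n = 3 each), and the gap of 1.41 between the groups was the widest among the tested members. The difference was 1.50 ± 0.10 (SE), with a 95% interval of 1.27 to 1.74 (limma adjusted p = 2.10e-05). CER1 was the one member past the threshold with at least a 2-fold difference, a size reached upward by 4.01% of tested genes. It passed under all 16 alternatives, with differences between 1.39 and 1.54.

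LEFTY1 had signals of 6407.5, 6694.9 and 7402.8 with Activin A + BMP4, against 7086.4, 6928.6 and 7796.5 with Activin A. LEFTY2 had signals of 15454.5, 15697.4 and 15039.3 with Activin A + BMP4, against 18162.6, 16658 and 16048.9 with Activin A. The brightest probe of an array lay between 55721 and 69616, so neither LEFTY probe was near the top of the scale. After normalization LEFTY1 stood at 12.70, 12.83 and 12.87 with Activin A + BMP4, against 12.62, 12.82 and 12.86 with Activin A, and the groups overlapped. LEFTY2 stood at 13.95, 14.03 and 13.85 with Activin A + BMP4, against 14.02, 14.06 and 13.92 with Activin A, and overlapped too. The fold of LEFTY1 was 1.02 (95% interval 0.858 to 1.22, limma adjusted p = 0.843). That of LEFTY2 was 0.963 (95% interval 0.819 to 1.13, limma adjusted p = 0.720). Both intervals lie close around 1 and end below the lower limit of the CER1 interval, 2.41-fold. The sign of the small LEFTY1 difference turned under median scaling and the authors' values, and that of LEFTY2 under cyclic loess. LEFTY1 and LEFTY2 are close paralogs, and how well their probes separate them was not tested.

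**Figure D1:**
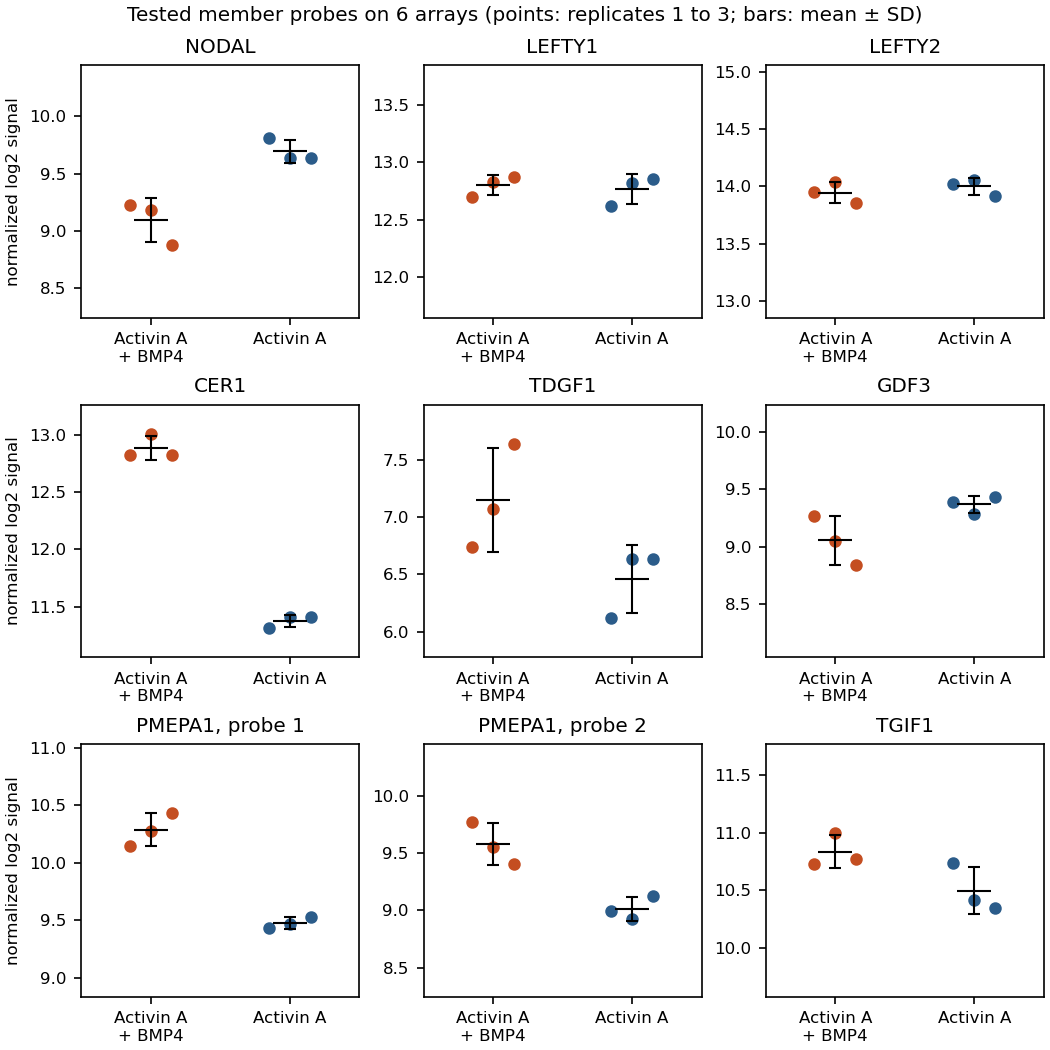
Normalized log2 signal (vertical axis, 2.2 log2 units in every panel) of the 9 tested member probes in Activin A + BMP4 and Activin A cells. Points are single arrays, replicates 1 to 3 from left to right, and black bars are mean ± SD. CER1 (1.50 higher) and NODAL (0.60 lower) separate by treatment in opposite directions, while LEFTY1 and LEFTY2 overlap.

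Inside the cell, PMEPA1 rose. PMEPA1 is a membrane protein induced by TGF-beta signalling that binds SMAD2 and SMAD3 and limits their access to the receptor. Its brighter probe had signals of 1075.9, 1114.8 and 1422.2 with Activin A + BMP4, against 757.9, 643.6 and 725.4 with Activin A, and a log2 difference of 0.81 ± 0.11 (SE, 95% interval 0.56 to 1.07, limma adjusted p = 7.04e-04). A second probe for the same transcript had signals of 816.1, 670 and 707.1 with Activin A + BMP4, against 556.6, 438.6 and 540.7 with Activin A. It differed by 0.56 ± 0.12 (SE, limma adjusted p = 0.00847). On both probes all Activin A + BMP4 arrays were above all Activin A arrays, and both passed under all 16 alternatives. The replicates were ordered differently on the probes: Activin A + BMP4 replicate 3 was highest on the first, at a log2 level of 10.44, and lowest of its treatment on the other, at 9.40. The remaining 2 PMEPA1 probes, made for other transcripts, were detected on 0 arrays.

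TGIF1, a homeodomain protein that represses SMAD2 target genes, was measured by 1 tested probe of 6. Its log2 levels were 10.73, 11.00 and 10.78 with Activin A + BMP4, against 10.73, 10.41 and 10.34 with Activin A. The groups met at a single point, where Activin A replicate 1 lay level with Activin A + BMP4 replicate 1. The difference was 0.34 ± 0.14 (SE, 95% interval 0.026 to 0.65, limma adjusted p = 0.0873). Without Activin A replicate 1 it was 0.45 and passed (limma adjusted p = 0.0371). Another TGIF1 probe listed for the same transcript was detected on 0 arrays. That probe had signals of 12.1, 28.9 and 31.8 with Activin A + BMP4, against 24.5, 26.4 and 22.7 with Activin A. The TGIF1 difference thus rests on 1 probe, and why these probes disagree in level was not tested. PMEPA1 and TGIF1 were read on arrays where the fibroblast markers' median differed by -1.33. The part of feeder RNA in these values was not tested.

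FOXH1, the forkhead partner of SMAD2 and SMAD3, was detected on 2 of 3 Activin A + BMP4 arrays and 0 of 3 Activin A arrays. Its signals were nevertheless close: 25.7, 48 and 60.3 with Activin A + BMP4, against 42.7, 33 and 44.4 with Activin A. All Activin A values lay inside the range of the Activin A + BMP4 values, and the Activin A + BMP4 mean was below the detection limit of the Activin A arrays, so no fold is given. SKIL, the gene of the SMAD co-repressor SnoN, had signals of 1.9, -4.2 and -2 with Activin A + BMP4, against -4.7, 24.4 and 15.3 with Activin A, and was detected on 0 arrays by its only probe. A negative signal is one below the background that had been subtracted. Of the 9 untested member probes 7 were detected on 0 arrays. The exceptions were FOXH1 and 1 TGIF1 probe, which had signals of 56, 40.2 and 41.9 with Activin A + BMP4, against 29, 22 and 8.9 with Activin A. That TGIF1 probe was detected only on Activin A + BMP4 replicate 1. Its mean with Activin A + BMP4 was below the detection limit of the Activin A arrays, so no difference is given.

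**Figure D2:**
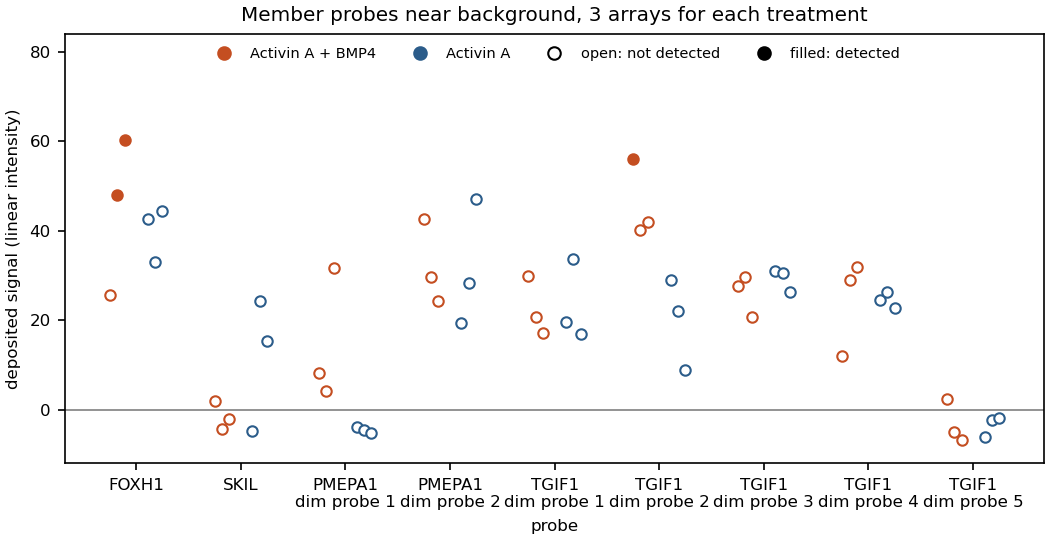
Deposited linear signal (vertical axis) of the 9 member probes that were not tested, with 3 arrays for each treatment; filled points are arrays on which the probe was detected. FOXH1 was detected on 2 Activin A + BMP4 arrays and 1 TGIF1 probe on 1, and SKIL lay around 0 on most arrays.

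**Figure D3:**
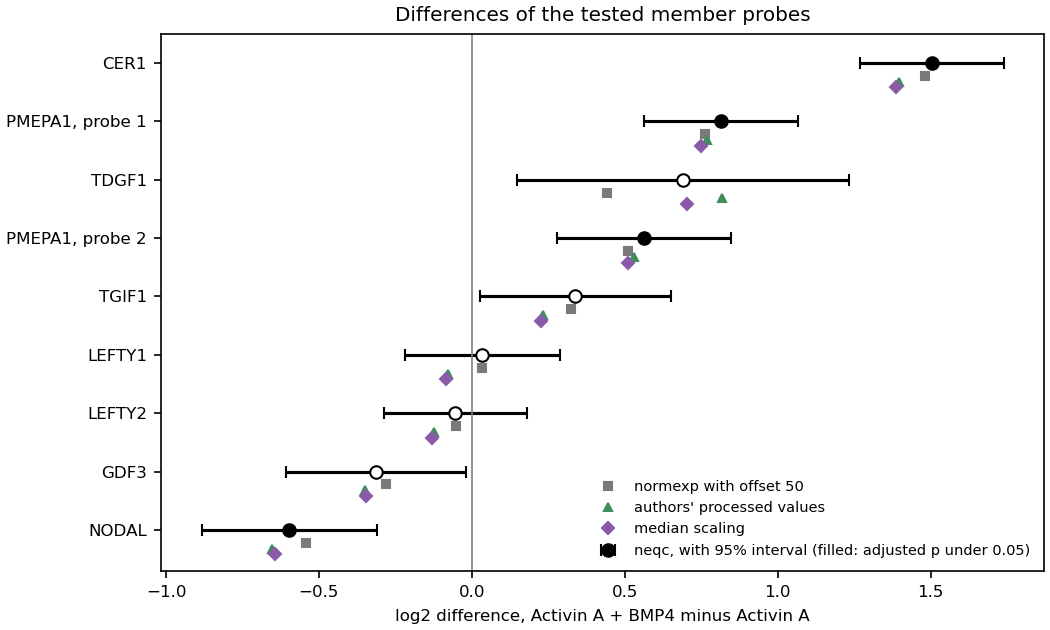
Log2 difference, Activin A + BMP4 minus Activin A (horizontal axis), of the 9 tested member probes. Circles with bars are the neqc fit with its 95% interval, filled where the adjusted p was under 0.05, and small markers are 3 other settings. CER1, both PMEPA1 probes and NODAL lie clear of 0 under all settings drawn, and LEFTY1 changes side.

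Because a constant scale of an array cancels in a ratio between 2 of its probes, each member was also set against NODAL within arrays. The effects of background correction and quantile normalization do not cancel in this way. CER1 had the largest gain on NODAL, with a change in the log2 ratio of 2.10, which is 4.29-fold. PMEPA1 gained 1.41, TDGF1 1.29 and TGIF1 0.94 on the log2 scale. LEFTY1 gained 0.63 and LEFTY2 0.54, although neither passed on its own, and GDF3 gained 0.28. In each of the 7 comparisons all 3 Activin A + BMP4 arrays had a higher ratio than all 3 Activin A arrays. NODAL alone separates the treatments, with a gap of 0.41, and it is in every ratio. The share of all tested genes whose ratio to NODAL separates likewise was not computed, so nothing particular to the members is read from the count. The exact two-sided permutation p was 0.1 each time, and 0.1 after adjustment over the 7, which is the smallest that 3 against 3 arrays allow. All 7 ratios share the NODAL probe. A test that cannot go below 0.1 cannot pass the threshold, so the ratios are given as a description, and each gain contains the difference of NODAL itself, -0.60 on the log2 scale.

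Over the 6 arrays, GDF3 ran with NODAL (Pearson r = 0.91) and PMEPA1 (-0.98), TDGF1 (-0.93) and CER1 (-0.92) ran against it, a description in which the points share 2 treatments. LEFTY2 (0.57), LEFTY1 (-0.46) and TGIF1 (-0.57) followed it less closely. The tested genes most like NODAL by the same measure were WIPI1 (0.999), JTB (0.998), AHCY (0.996), PARP3 (0.994) and ETFDH (0.993), all with lower mean levels in Activin A + BMP4 arrays.

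Other genes of the pathway were read from 5 lists. Of 54 genes with a probe, 33 were tested, of which 14 passed upward, 7 passed downward and 12 did not pass, with a median log2 difference of 0.38. That is 63.6% called, against 35.8% of all tested genes (17.6% higher, 18.1% lower, median 0.0019), and nothing particular to the lists is read from it. These lists, like the members, were chosen with earlier results of the data known. Among ligands and ligand inhibitors, 2 of 6 tested genes passed upward, 2 downward and 2 missed the threshold. GDF15, a stress-induced TGF-beta family cytokine, was lower by 1.99 on the log2 scale, with mean levels of 9.48 in Activin A + BMP4 and 11.5 in Activin A arrays (limma adjusted p = 1.33e-05). BMP2, a ligand of the BMP receptors, was higher by 1.49, with mean levels of 11.4 in Activin A + BMP4 and 9.91 in Activin A arrays (limma adjusted p = 5.29e-05). FST, which encodes the Activin-binding protein follistatin, was higher by 1.09, and GREM1, a BMP antagonist gene, lower by a difference of -0.99. GDF15, BMP2, FST and GREM1 were read on arrays where the fibroblast markers' median differed by -1.33. The part of feeder RNA in their values was not tested. The Activin subunit genes INHBA and INHBB, and DAND5, a Nodal antagonist gene related to CER1, were detected on 0 arrays.

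Among receptors and membrane proteins, 3 of 6 tested genes were higher and 1 was lower, 66.7% called against 35.8% of all tested genes. The Activin receptor genes ACVR2A and ACVR1B, both used by Nodal, were higher by 0.90 and 0.41 (limma adjusted p = 0.00196 and 0.0123). TMEFF1, a membrane protein gene known to block Nodal signalling in frog embryos, was higher by 0.75. TGFBR2, the type II receptor for TGF-beta itself, was lower by a difference of -1.16 (limma adjusted p = 1.47e-04), on arrays where the fibroblast markers' median was -1.33, and the part of feeder RNA was not tested. BAMBI, a decoy receptor gene, differed by 0.94 ± 0.32 (SE) and did not pass (limma adjusted p = 0.0523). CFC1, the other co-receptor gene of the EGF-CFC class, was detected on 0 arrays.

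Among SMADs and their regulators, 1 of 9 tested genes was higher and 3 were lower, 44.4% called and thus near the share of all tested genes. SMAD7, the inhibitory SMAD induced by both Activin and BMP signals, was higher by 1.03 ± 0.21 (SE, limma adjusted p = 0.00563). It was detected on 3 of 3 Activin A + BMP4 arrays and 1 of 3 Activin A arrays. SMAD3, a direct transducer of Nodal, was lower by a difference of -0.51 (limma adjusted p = 0.0213), while SMAD2, its partner, differed by 0.67 ± 0.26 (SE, limma adjusted p = 0.0773) and SMAD4 by -0.010. FOXO3 and TRIM33 were lower by differences of -0.38 and -0.29. SKI, the relative of SKIL, differed by 0.027 and TGIF2, the relative of TGIF1, by 0.38, and neither passed (limma adjusted p = 0.920 and 0.0552). FURIN, a convertase that cleaves the Nodal precursor, was higher by 0.71 (limma adjusted p = 0.0240), and NOMO1, which takes part in a Nodal-modulating membrane complex, differed by -0.15 (limma adjusted p = 0.498).

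Of 10 tested transcription factors that Nodal signalling is known to induce or maintain, 7 were higher, 1 was lower and 2 did not pass, with a median log2 difference of 1.02. That is 80% called, against 35.8% of all tested genes (17.6% higher, 18.1% lower), for a list chosen with earlier results of the data known. SOX17 and TBXT differed most, by 2.85 and 2.03. The gene that fell was NANOG, a pluripotency factor, by 1.08 on the log2 scale. NODAL and NANOG were lower on arrays where most of the other listed target genes were higher.

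**Figure D4:**
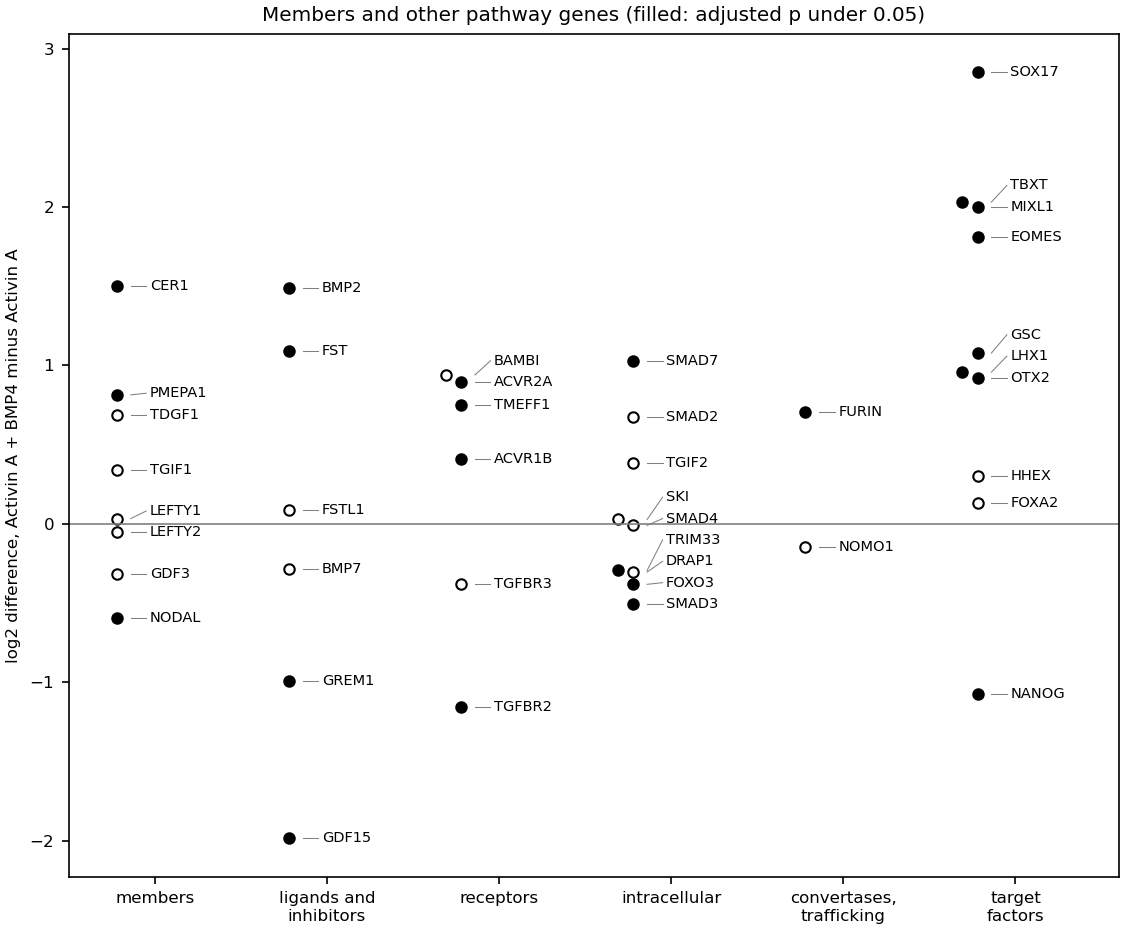
Log2 difference, Activin A + BMP4 minus Activin A (vertical axis), of each tested member and of the tested genes of 5 pathway lists (horizontal axis), 1 probe for each gene; filled points had an adjusted p under 0.05, and points close in height are set side by side. The 8 members run between CER1 at 1.50 and NODAL at -0.60, and 7 of 10 target factors lie above 0 with filled points. Of all tested genes 17.6% passed upward.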

How the data were processed

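The authors deposited each probe's signal as a linear intensity, with no normalization between arrays per the file headers; 22.2% to 24.6% of an array's values were negative, so background had been subtracted. The detection column is a score that the deposited file names a detection p-value; it rose with the signal (Spearman correlation at least 0.980 on each array) and so was taken to be 1 minus the p-value. Processed log2 values that the authors deposited equal the log2 signal plus a probe and an array constant to within 1.20e-06 over 6507 bright probes; the baseline of each probe is unknown. The sources used here do not name the scanner software.

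Normalization used neqc in limma 3.58.1 (R 4.3.3; offset 16, negative controls inferred from detection p-values). Probes detected at p under 0.01 on at least 3 arrays were kept, 10116 in all. Of 24526 probes, 21834 had 1 gene symbol, 0 several and 2692 none; 21813 matched RefSeq genes. The brightest tested probe stood for a gene, which gave 8186 genes. Treatments were compared with lmFit and eBayes, with treatment as the only term, two-sided, with Benjamini-Hochberg adjustment over all probes at 0.05. Ratios to NODAL were compared with exact permutation tests. The limma step alone was tested on simulated normalized values, with a smaller share of changed probes than was called here. That simulation did not cover background correction, quantile normalization or the chips. The number of arrays limits the precision. The limma p-values set a difference against the spread between replicate arrays within treatments, moderated across probes. They do not cover differences between chips.

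Members and lists were chosen with earlier results of these data known. Genes named include all members, ID1 to ID3 and the 2 largest differences in each pathway list. Genes on which a sentence about direction turns and the 5 genes most correlated with NODAL are named too. TMEFF1, FOXO3, TRIM33, TGIF2, SKI, FOXA2, HHEX, GATA6 and the undetected genes were added after their values were seen. Deviations of same-numbered arrays from their group means correlated at 0.035, -0.029 and -0.050, and the arrays were not treated as paired. Such correlations cannot tell whether same-numbered cultures were grown in parallel.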

Additional observations from a re-analysis of the deposited data

How the results depend on the processing

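Of the 144 comparisons of a tested member probe with an alternative, 130 kept direction and side of the threshold, 9 came to pass it and 5 turned in sign; none lost a call. CER1, NODAL and both PMEPA1 probes passed under all 16 alternatives. TDGF1 passed with normexp and an offset of 50 (0.44), median scaling (0.70), detection on all 6 arrays (0.69), array weights (0.64), the replicate block (0.69, limma adjusted p = 0.0117) and without Activin A + BMP4 replicate 1. TGIF1 passed with normexp (0.33) and without Activin A replicate 1, GDF3 without Activin A + BMP4 replicate 1. With normexp 4 members were thus higher, against 2. The cause was not tested. With any 1 array left out, 2 to 3 members were higher and 1 to 2 lower. LEFTY1 turned to -0.083 with median scaling, -0.078 with the authors' values, -0.00033 without Activin A + BMP4 replicate 3 and -0.040 without Activin A replicate 1 (-0.040 to 0.084 with any 1 array left out), and LEFTY2 to 0.012 with cyclic loess, none past the threshold. Median differences over all probes stayed between -0.025 and 0.011. Changes against NODAL moved by less than the spread between replicates with normexp and with the authors' values. With the chip as a random block no member's call changed. Each chip held 1 treatment, so that fit cannot separate a chip effect from the treatment. Same-numbered arrays were not treated as paired in the main fit. Under the replicate block the call of TDGF1 alone among the members changed. Dim signals limit FOXH1, SKIL and TDGF1.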
